A study of Mus musculus with 6 samples.

Results

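Gpi1, Gapdh and Rpia are mouse genes of sugar metabolism. Their RNA was followed through a chromatin capture aimed at telomeres in MEL cells, a mouse erythroleukemia line. The units measured were transcript models assembled by the authors, and a model was taken when at least 50% of its exon bases lay in the RefSeq span of a gene. This gave 5 of the 7959 deposited models, 3 in Gpi1, 1 in Gapdh and 1 in Rpia. All 5 lay wholly inside their span and no other model touched these spans. The genes were selected on measured values: earlier results of these data were known. Models of Rpia and Gpi1 were among the 6 with the smallest p on the lower side when TH59-DB was set against the masked capture, and Gapdh had 0 reads in 1 masked library. Values of that comparison are therefore a description, with no test. The comparison of TH59-DB with input uses the same TH59-DB libraries, so its p-values for these genes are no independent support.

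The 6 libraries fell into 3 groups of 2. All came from MEL cells, labelled as of C57BL/6 strain, grown in serum-containing medium and crosslinked with formaldehyde. TH59-DB libraries held RNA from chromatin captured with TH59-DB, which belongs to the pyrrole-imidazole polyamides and targets telomeric DNA. Masked TH59-DB libraries came from the same capture by the masked form, labelled as the negative control, and input libraries from the chromatin before capture. Only the second library of each group carries a number in the labels, so the other is called library 1. The labels do not state separate cultures, so p-values measure only the spread between these libraries.

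Glycolysis splits glucose into pyruvate in the cytosol and yields ATP. Glucose-6-phosphate isomerase, encoded by Gpi1, converts glucose 6-phosphate to fructose 6-phosphate near the start of the pathway. Gapdh encodes glyceraldehyde-3-phosphate dehydrogenase, which oxidises glyceraldehyde 3-phosphate and makes NADH. The pentose phosphate pathway branches off at glucose 6-phosphate, and its ribose-5-phosphate isomerase, encoded by Rpia, makes the ribose phosphate used for nucleotides. All 3 are widely expressed, and red blood cells rely on glycolysis for their ATP.

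The library totals ran from 1803723 to 3122558 reads, so 1 read was worth 0.320 to 0.554 CPM, meaning reads per 1000000 of the library total. Across all models, the Spearman correlation was 0.568 for the TH59-DB pair, 0.700 for the masked pair and 0.921 for the input pair. A single model took 50.8% of masked TH59-DB 1, and 4341 models had 0 reads there. The lowest count of TH59-DB 1 was 5 reads and its median 17 reads, and 99.3% of its models reached 10 reads, where 30.3% to 58.7% did elsewhere. The 5 models had 10 to 17 reads in TH59-DB 1, at or below its median, and what part this lower limit had in their levels was not tested. Of 16 erythroid marker genes 8 had a model, Gata1, Klf1 and Epor among them, and globin genes had none. Their summed level was 424 to 518 CPM in TH59-DB, 503 to 1125 CPM in masked TH59-DB and 839 to 1157 CPM in input. Both blood cell markers with a model, Itga2b and Laptm5, summed to 7.72 to 42.7 CPM in TH59-DB, 4.06 to 39.1 CPM in masked TH59-DB and 24.1 to 49.4 CPM in input. The 6 fibroblast and epithelial markers had no model.

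The positions below are those of mm10 in the files, and the gene spans are those of GRCm38.p6 in RefSeq. All 3 genes lie on the minus strand. Gpi1 spans chr7:34201327-34230336. Its start model has 2 blocks, chr7:34230095-34230287 and chr7:34229286-34229376, and its first base lies 49 bases inside the gene's 5′ end. Its interior model is a single block, chr7:34225483-34225776, which begins 4560 bases from the 5′ end. Its end model has 2 blocks, chr7:34202637-34202676 and chr7:34202246-34202549, and stops 919 bases short of the 3′ end. The Gapdh model, chr6:125164186-125164444, is a single block of 259 bases in the middle of a span of 4616 bases, chr6:125161852-125166467. The Rpia model, chr6:70765905-70766126, is a single block of 222 bases that stops 185 bases short of the 3′ end of chr6:70765720-70792175. The gene table holds no exons, so the blocks cannot be named as exon, intron or UTR. The single-block models are written on the plus strand in the files of library 1 and with no strand in those of library 2, as are nearly all 5997 single-block models. Sense and antisense reads therefore cannot be told apart for them.

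**Figure D1:**
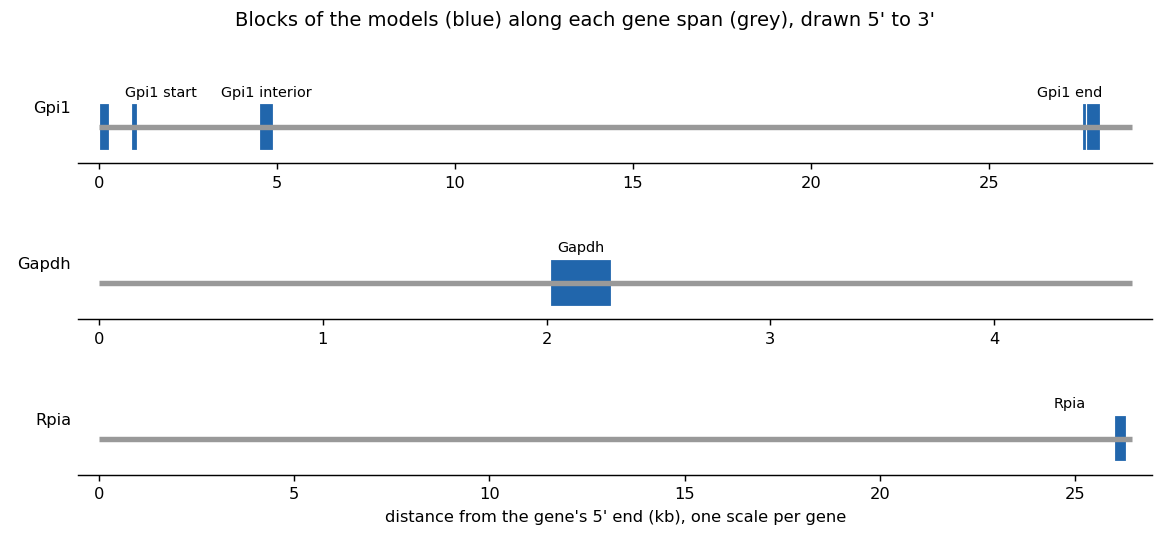
Blocks of the 5 models along each gene span, drawn from the gene's 5′ end, with the distance in kb and a separate scale for each gene. The Gpi1 models sit at the start, 4560 bases in and near the end, the Gapdh model in the middle and the Rpia model near the end.

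The promoter of Gpi1 is shown because its start model begins 49 bases from the annotated start, and those of Rpia and Gapdh are set beside it. No link between promoter sequence and the levels in the libraries was tested. The RefSeq promoter table of GRCm38.p6 held all 3 genes. The 250 bases before each start are given 5′ to 3′ on the minus strand, with capitals for GC boxes, the letters GGGCGG or their reverse complement CCGCCC. The Gpi1 window is chr7:34230337-34230586, the Rpia window chr6:70792176-70792425 and the Gapdh window chr6:125165774-125166023. The promoter table starts Gapdh at position 125165773, inside the span given above, whereas for Gpi1 and Rpia it starts at the 5′ end of the span.
Gpi1: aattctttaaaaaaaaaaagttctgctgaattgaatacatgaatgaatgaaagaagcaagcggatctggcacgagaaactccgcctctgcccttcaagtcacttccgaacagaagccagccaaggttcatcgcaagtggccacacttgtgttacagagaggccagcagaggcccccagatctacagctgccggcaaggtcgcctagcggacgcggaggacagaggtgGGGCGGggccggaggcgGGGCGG
Rpia: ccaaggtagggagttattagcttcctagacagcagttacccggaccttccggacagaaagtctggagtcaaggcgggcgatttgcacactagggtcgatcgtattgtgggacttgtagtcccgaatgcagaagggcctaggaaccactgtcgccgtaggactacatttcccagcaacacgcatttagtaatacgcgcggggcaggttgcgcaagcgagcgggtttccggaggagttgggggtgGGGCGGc
Gapdh: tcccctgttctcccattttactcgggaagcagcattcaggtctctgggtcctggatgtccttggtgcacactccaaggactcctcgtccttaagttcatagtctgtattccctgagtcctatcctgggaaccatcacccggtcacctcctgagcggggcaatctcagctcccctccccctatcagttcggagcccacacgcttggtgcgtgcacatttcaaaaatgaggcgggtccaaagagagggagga
The Gpi1 window held 2 GC boxes, the Rpia window 1 and the Gapdh window 0, and 32.7% of 32851 promoter windows of this length held at least 1. The telomere repeat letters TTAGGG, or CCCTAA on the other strand, were in none of the 3 windows and in 9.32% of all windows. The letters TATAAA (12.4% of all windows) and CCAAT (33.8%) were also in none of the 3, on either strand. None of the motifs searched overlaps another here. G and C made up 55.2% of the Gpi1 window, 57.2% of the Rpia window and 55.6% of the Gapdh window, against a median of 52.4% over all windows.

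The first comparison, TH59-DB with input, asks which chromatin RNAs the capture enriched or depleted. Of the 5 models, the Gpi1 end model fell in TH59-DB and the other 4 did not pass the test. The test was edgeR's quasi-likelihood F-test over all 6 libraries, with Benjamini-Hochberg adjustment over 5385 tested models and a threshold of 0.05. All 5 models passed its read filter. Over all tested models, 2 (0.0371%) passed as lower and 193 (3.58%) as higher in TH59-DB. The other lower model lies in the span of Gm8730 on chromosome 8, and no member passed as higher. In TH59-DB 1, 99.3% of all models reached 10 reads, so models with few reads there are scarce in the set. What part this had in the number and ranking of lower calls was not tested. A lower value here is a lower share of the TH59-DB libraries than of the input libraries, and does not measure a change of expression in the cells. In such bulk libraries fewer cells with an RNA and less of it per cell cannot be told apart.

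The Gpi1 end model, near the 3′ end of the isomerase gene, had 14 and 10 reads in TH59-DB and 41 and 105 in the masked libraries, against 96 and 173 in input. In CPM this was 7.76 and 3.86 in TH59-DB and 20.8 and 33.6 in the masked libraries, against 32.2 and 60.6 in input. Both TH59-DB libraries lay below all 4 others, and the masked and input libraries overlapped. The means were 5.81 ± 2.76 CPM in TH59-DB, 27.2 ± 9.07 in masked TH59-DB and 46.4 ± 20.1 in input (SD, n = 2 each). Against input the fitted log2 fold change was -2.99 (SE 0.66, edgeR adjusted p = 0.0290), and the pooled reads were 8.43-fold lower in TH59-DB (95% exact interval 5.55 to 13.4). The reads carry no molecular identifiers, so such intervals cover counting error only. Among all tested models this was the smallest p on the lower side. Gpi1 was chosen with low values in these same TH59-DB libraries known, so this p and its rank are no independent support. The call ended without any 1 TH59-DB or input library (adjusted p = 0.209 without TH59-DB 1, 0.147 without TH59-DB 2, 0.513 without input 1 and 0.700 without input 2) and with library totals in place of TMM factors (0.0521). The log2 fold change stayed between -3.30 and -2.62 in all 13 alternatives, and 8 of them kept the call.

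At the other side of the gene, the start model had 10 and 30 reads in TH59-DB and 43 and 76 in the masked libraries, against 89 and 91 in input. Its levels were 8.57 ± 4.27 CPM in TH59-DB, 23.1 ± 1.78 in masked TH59-DB and 30.8 ± 1.46 in input (SD, n = 2 each). The 3 groups did not overlap and stood in this order. Against input its log2 fold change was -1.63 (SE 0.78, edgeR adjusted p = 0.391), which did not pass. It ran from -3.27 without TH59-DB 2 to -0.61 without TH59-DB 1.

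The interior block of Gpi1 was the scarcest of its 3 models in input. It had 17 and 4 reads in TH59-DB and 9 and 1 in the masked libraries, against 3 and 3 in input. In CPM this was 9.42 and 1.54 in TH59-DB and 4.57 and 0.320 in the masked libraries, against 1.00 and 1.05 in input. Library 1 was above library 2 in both captures, and both TH59-DB libraries lay above both input libraries. Against input the log2 fold change was 2.08 (SE 1.82, edgeR adjusted p = 0.759), opposite in sign to the start and end models, and it did not pass. The block passed the read filter through TH59-DB 1 and masked TH59-DB 1, the libraries where it is high, so its sign carries that choice.

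Set within the gene, the interior block held 41.5% of the Gpi1 reads of TH59-DB 1 (17 of 41, 95% exact interval 26.3% to 57.9%) and 9.09% of those of TH59-DB 2 (2.53% to 21.7%). It held 9.68% in masked TH59-DB 1 (4.52% to 17.6%) and 0.549% in masked TH59-DB 2 (0.0139% to 3.02%). The share was 1.60% in input 1 (0.330% to 4.59%) and 1.124% in input 2 (0.232% to 3.25%). These intervals cover counting error within a single library, and the block passed the filter through libraries where it is high, so the shares are a description. In TH59-DB 1 the lowest count of any model was 5 reads and the median 17, the same as the count of this block. What part that lower limit had in the 41.5% and in the ratio per length there was not tested. Per length, the interior level was 1.52 times the mean of the start and end levels in TH59-DB 1 and 0.202 times in TH59-DB 2. It was 0.226 and 0.0119 times in the masked libraries and 0.0344 and 0.0248 times in input. The end over the start, per length, was 1.16 and 0.275 in TH59-DB and 0.787 and 1.14 in the masked libraries, against 0.891 and 1.57 in input.

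A pseudogene of the isomerase gene may share reads with it. Gpi-ps, annotated as a pseudogene on chromosome 8 (chr8:5639506-5641208), held a model of 317 bases, which was looked up after the values were seen. It had 10 and 11 reads in TH59-DB and 18 and 33 in the masked libraries, against 65 and 89 in input. Its levels were 4.90 ± 0.92 CPM in TH59-DB, 9.85 ± 1.01 in masked TH59-DB and 26.5 ± 6.65 in input (SD, n = 2 each), with no overlap between groups. Its log2 fold change against input was -2.38 (SE 0.79, edgeR adjusted p = 0.165, 0.0175 to 1.00 over the alternatives). How many of its reads came from Gpi1 was not tested.

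Gapdh, often used as a reference gene, was a low model here. It had 10 and 13 reads in TH59-DB and 0 and 11 in the masked libraries, against 10 and 21 in input. In CPM this was 5.54 and 5.02 in TH59-DB and 0 and 3.52 in the masked libraries, against 3.35 and 7.36 in input. The TH59-DB values lay between the input values, and both TH59-DB values stood above both masked values. The 0 in masked TH59-DB 1 allows up to 3 reads, or 1.52 CPM, for counting error only. Per length, Gapdh averaged 20.4 ± 1.43 CPM per 1000 bases in TH59-DB, 6.80 ± 9.62 in masked TH59-DB and 20.7 ± 10.9 in input (SD, n = 2 each). In input this was below the 108.6 of Gpi1 start, the 135 of Gpi1 end and the 130 of Rpia. The model covers 259 bases in the middle of the gene, and RefSeq lists 3 pseudogenes named Gapdh-ps. None of them held a model, and reads lost to such copies were not measured. Against input the log2 fold change was 0.13 (SE 1.49, edgeR adjusted p = 0.986) and turned to -0.02 with library totals, -0.65 without TH59-DB 2 and -0.06 without input 1. The pooled ratio to input was 0.986 (95% exact interval 0.549 to 1.75).

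Rpia, on the pentose phosphate branch, was measured by a block at the very end of the gene. It had 14 and 13 reads in TH59-DB and 59 and 115 in the masked libraries, against 87 and 81 in input. In CPM this was 7.76 and 5.02 in TH59-DB and 29.9 and 36.8 in the masked libraries, against 29.1 and 28.4 in input. Both TH59-DB libraries lay below all others, and both masked libraries lay just above the input libraries. The means were 6.39 ± 1.94 CPM in TH59-DB, 33.4 ± 4.87 in masked TH59-DB and 28.8 ± 0.55 in input (SD, n = 2 each). Against input the log2 fold change was -2.21 (SE 0.68, edgeR adjusted p = 0.133), which did not pass, nor did it in any of 13 alternatives (0.0522 to 1.00). The pooled reads were 4.68-fold lower in TH59-DB (95% exact interval 3.10 to 7.31). By library number, TH59-DB was 3.75-fold below input in number 1 and 5.65-fold below in number 2.

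**Figure D2:**
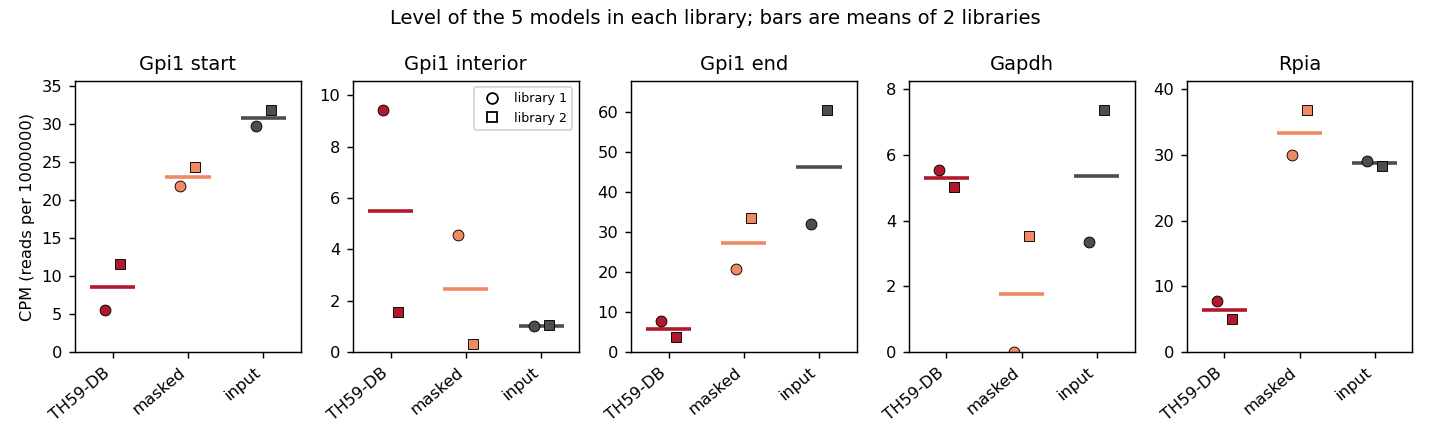
CPM of the 5 models in TH59-DB, masked TH59-DB and input, with a panel and a linear scale for each model. Circles are library 1, squares library 2 and bars the mean of 2 libraries. Gpi1 end and Rpia lie at 3.86 to 7.76 CPM in TH59-DB and at 20.8 CPM or more elsewhere.

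Counted by overlap, 3 of the 5 models had both TH59-DB libraries below both input libraries, where 23.5% of tested models did, and 1 (Gpi1 interior) had both above, where 22.5% did. The 3 were Rpia and the start and end models of Gpi1, genes chosen with low values in these TH59-DB libraries known. Gpi1 interior passed the read filter through libraries where it is high. These counts are therefore a description. The comparison of masked TH59-DB with input gives the background of the control probe. None of the 5 models passed there by edgeR, with 0 also at an unadjusted p under 0.05. By DESeq2, Gpi1 start, Gpi1 end and Rpia did not pass, and Gpi1 interior and Gapdh had no adjusted p. Over all tested models, 0 of 5385 (0%) passed as lower and 14 (0.26%) as higher by edgeR. With library totals in place of TMM factors these were 18 lower and 90 higher. The log2 fold changes were -0.62 (SE 0.75) for Gpi1 start, -0.93 (SE 0.60) for Gpi1 end, 1.20 (SE 1.83) for Gpi1 interior and -1.82 (SE 1.55) for Gapdh. The edgeR adjusted p ran from 0.838 to 1.00 over the 5 models. Without masked TH59-DB 2, which leaves the library where Gapdh had 0 reads, the Gapdh log2 fold change was -6.63. Those 0 reads were among the values known when the genes were chosen, so this is a description. Rpia had -0.01 (SE 0.63), and it kept its sign in 4 of 13 alternatives. Its pooled reads were 1.19 times those of input (95% exact interval 0.955 to 1.48). Both masked libraries lay below both input libraries for Gpi1 start alone, where 14.4% of tested models did, and above for Rpia alone, where 15.9% did.

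In TH59-DB set against the masked capture, which shows what the telomere-directed probe held beyond the control probe, the levels are a description because it chose the genes. Over all models 0 (0%) passed as lower and 76 (1.41%) as higher (edgeR), with 91 lower at an unadjusted p under 0.05 and 1 lower by DESeq2. The log2 fold changes of the members were -2.20 (SE 0.68) for Rpia, -2.06 (SE 0.64) for Gpi1 end and -1.02 (SE 0.77) for Gpi1 start. They were 0.88 (SE 1.75) for Gpi1 interior, which turned to -0.57 without masked TH59-DB 2 and to -0.18 without TH59-DB 1, and 1.95 (SE 1.56) for Gapdh. Both libraries of TH59-DB lay below both masked libraries for Rpia, Gpi1 end and Gpi1 start, where 14.7% of tested models did, and above for Gapdh, where 16.1% did.

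By library number, Rpia was 3.86-fold lower in TH59-DB 1 than in masked TH59-DB 1 and 7.33-fold lower in TH59-DB 2 than in masked TH59-DB 2. Gpi1 end was 2.68-fold lower in number 1 and 8.71-fold lower in number 2, and Gpi1 start 3.94-fold and 2.10-fold lower. Gapdh, with 10 reads in TH59-DB 1, stood there 3.64-fold above the floor of 3 reads in masked TH59-DB 1. It was 1.43-fold higher in TH59-DB 2 than in masked TH59-DB 2. The 3.64 is no bound, because the 10 reads carry counting error and lie near the lower limit of TH59-DB 1. Only 9.66% of models had 10 reads or fewer there, and 4341 models had 0 reads in masked TH59-DB 1. The comparisons with input and with masked TH59-DB share the TH59-DB libraries, so their values are not independent of each other.

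**Figure D3:**
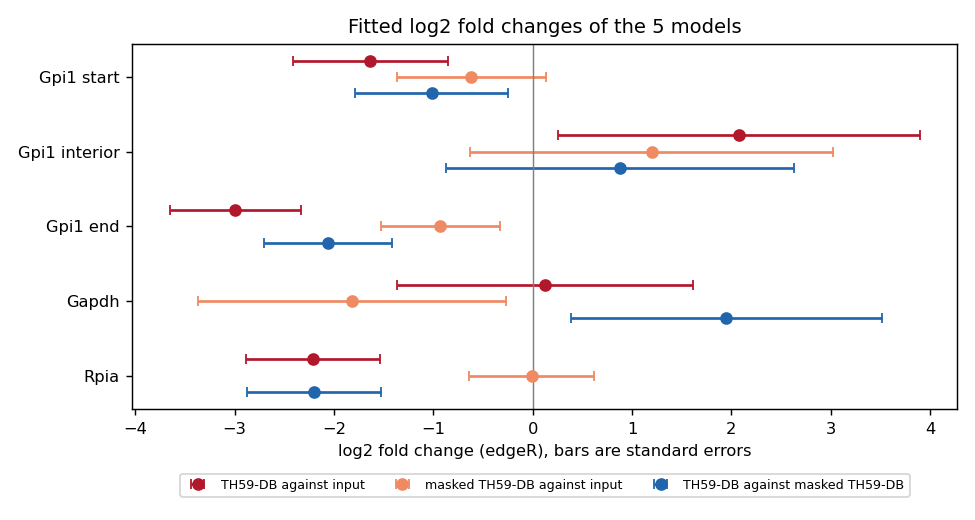
Fitted log2 fold changes of the 5 models (x axis) in the 3 comparisons, with standard errors as bars. Gpi1 end (-2.99) and Rpia (-2.21) lie lowest against input, and the bars of Gpi1 interior and Gapdh are wide.

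The order of levels within a library does not depend on the library total. Places are percentiles of CPM per 1000 bases, with tied models at their mean rank. The Rpia model stood above 40.02% and 70.6% of all models in TH59-DB and 95.9% and 93.7% in the masked libraries, against 95.1% and 91.4% in input. The Gpi1 end model stood above 12.1% and 51.8% in TH59-DB and 87.3% and 87.2% in the masked libraries, against 92.5% and 94.2% in input. Both models thus held a high place in input and in masked TH59-DB and a lower one in each TH59-DB library. In TH59-DB 1 the counts crowd near the lower limit. There 9.66% of models had 10 reads or fewer, 36.4% had 14 or fewer and 50.1% had 17 or fewer. A few reads therefore move a place far in that library. The Gpi1 start model stood above 6.92% in TH59-DB 1 and above 84.1% in TH59-DB 2, against 84.9% to 90.4% in masked TH59-DB and 90.02% to 93.6% in input, so its place moved mainly in TH59-DB 1. Gapdh stood at the percentiles 9.67 and 66.4 in TH59-DB and 27.3 and 44.0 in the masked libraries, against 56.6 and 64.2 in input, the 27.3 being the mean rank of the models tied at 0. For Gpi1 interior the places were 33.0% and 35.7% in TH59-DB and 69.7% and 24.1% in the masked libraries, against 34.9% and 31.5% in input.

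**Figure D4:**
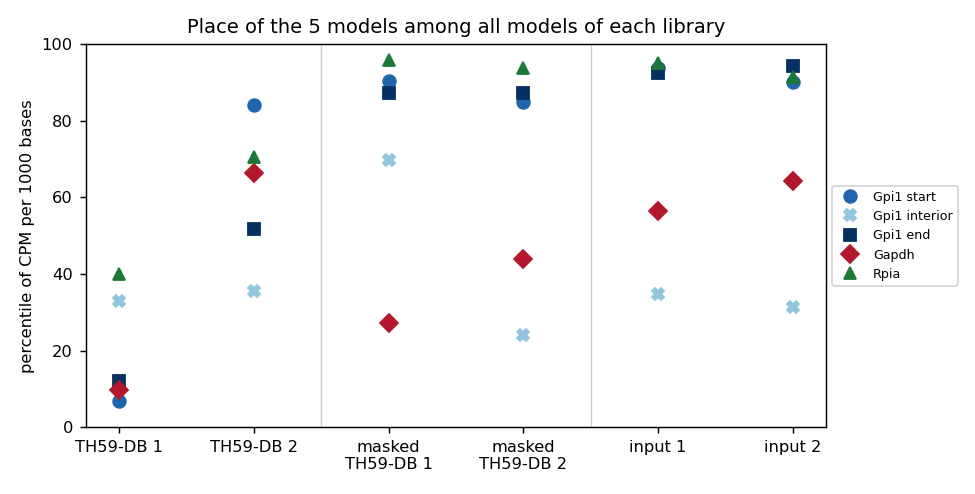
Percentile of each model's CPM per 1000 bases among all 7959 models (y axis) in the 6 libraries (x axis). In masked TH59-DB and input, Rpia and the Gpi1 start and end models stand at 84.9% or higher, and in TH59-DB 1 all 5 stand at 40.02% or lower.

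Ordered by mean CPM per 1000 bases, TH59-DB had Gpi1 start (30.2 ± 15.0), Rpia (28.8 ± 8.73), Gapdh (20.4 ± 1.43), Gpi1 interior (18.7 ± 19.0) and Gpi1 end (16.9 ± 8.02), and no neighbours in that order differed beyond their SD. Masked TH59-DB had Rpia (150.4 ± 21.95), Gpi1 start (81.3 ± 6.28), Gpi1 end (79.1 ± 26.4), Gpi1 interior (8.31 ± 10.2) and Gapdh (6.80 ± 9.62). There the gaps after Rpia and after Gpi1 end were wider than the SDs. Input had Gpi1 end (135 ± 58.5), Rpia (130 ± 2.46), Gpi1 start (108.6 ± 5.13), Gapdh (20.7 ± 10.9) and Gpi1 interior (3.496 ± 0.11). The first pair overlapped within the SD of Gpi1 end, and the others were apart by more than their own SDs (SD, n = 2 each). Over the 5 models together the level was 36.0 and 27.0 CPM in TH59-DB and 77.1 and 98.6 CPM in masked TH59-DB, against 95.5 and 129 CPM in input.

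Other genes of the pathway were read from lists chosen with earlier results of these data known. The glycolysis list held 31 further genes, of which 15 had a model, 37 models in all, and 34 models of 14 genes were tested. Against input, 0 passed in either direction in TH59-DB (edgeR, 7 lower and 0 higher at an unadjusted p under 0.05, and 0 by DESeq2). Their log2 fold changes ran from -2.49 to 1.45 with a median of -0.90, against 0.03 over all tested models, and 23 of 34 were negative. For 19 of the 34 (55.9%) both TH59-DB libraries lay below both input libraries, where 23.5% of tested models did. In masked TH59-DB against input 0 passed (2 lower and 0 higher at an unadjusted p under 0.05, 0 by DESeq2), with a median of -1.04, against -0.26 over all models. For 12 of the 34 (35.3%) both masked libraries lay below both input libraries, where 14.4% of tested models did. Without masked TH59-DB 2, 10 of 36 passed as lower there, but calls over all models also moved to 1004 lower and 409 higher, against 0 and 14 with that library. Against masked TH59-DB the median in TH59-DB was -0.04, against 0.30 over all models, and 0 passed (0 at an unadjusted p under 0.05, 0 by DESeq2). Without masked TH59-DB 2, 11 of 36 passed as higher and 2 as lower, where 1479 of all models passed as higher and 241 as lower. The median of the list was then 0.64, against 5.10 over all models.

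The 4 of these genes most abundant in input were Pkm, Ldha, Aldoa and Hk1. The leading model of Pkm, which encodes pyruvate kinase, had 171 and 148 CPM in TH59-DB and 214 and 365 CPM in masked TH59-DB, against 334 and 511 CPM in input (log2 fold change of TH59-DB against input -1.31, SE 0.72). That of Ldha, lactate dehydrogenase, had 44.9 and 47.9 CPM in TH59-DB and 48.2 and 134 CPM in masked TH59-DB, against 140 and 236 CPM in input (-1.86, SE 0.69). That of Aldoa, aldolase, had 36.0 and 45.6 CPM in TH59-DB and 93.9 and 127 CPM in masked TH59-DB, against 136 and 204 CPM in input (-1.88, SE 0.68). All 3 stood lowest in both TH59-DB libraries, and none passed. The leading model of Hk1, hexokinase, which feeds glucose 6-phosphate to the isomerase, had 48.8 and 40.2 CPM in TH59-DB and 58.9 and 114 CPM in masked TH59-DB, against 97.5 and 160 CPM in input (-1.44, SE 0.62). Hk1 too stood lowest in both TH59-DB libraries and did not pass. The edgeR adjusted p of these 4 models against input ran from 0.213 to 0.495.

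Of 13 pentose phosphate genes besides Rpia, 3 had a model, and 3 models of 2 genes were tested, with 0 passing in any comparison (edgeR, 0 at an unadjusted p under 0.05, 0 by DESeq2). In masked TH59-DB against input, 1 of 4 passed as lower without masked TH59-DB 1, where 30 of all models did, and 1 of 4 without masked TH59-DB 2. Leaving out masked TH59-DB 2 also let 1 of 4 pass as higher in TH59-DB against masked TH59-DB, beside the shift in calls over all models given above. The leading model of Pgls, the lactonase of the pathway, had 9.98 and 9.27 CPM in TH59-DB and 2.03 and 25.3 CPM in masked TH59-DB, against 19.1 and 17.2 CPM in input. Tkt, transketolase, which takes up the pentose phosphates, had 6.10 and 5.41 CPM in TH59-DB and 0 and 10.6 CPM in masked TH59-DB, against 13.1 and 20.7 CPM in input. H6pd, the glucose-6-phosphate dehydrogenase of the endoplasmic reticulum, had 11.6 and 0 CPM in TH59-DB and 0 and 3.20 CPM in masked TH59-DB, against 0.670 and 1.75 CPM in input, and was not tested. Rpia had 29.9 and 36.8 CPM in masked TH59-DB, above Pgls and Tkt in both libraries. It was also above them in input, with means of 28.8 CPM for Rpia, 18.1 for Pgls and 16.9 for Tkt. The gap was widest in masked TH59-DB 1, where 4341 models had 0 reads. In masked TH59-DB 2, Pgls lay above both its input libraries, as Rpia did. These differences were not tested.

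Of 21 genes that carry pyruvate into the mitochondrion and through the citric acid cycle, 8 had a model, and 7 models were tested, with 0 passing in any comparison (in TH59-DB against masked TH59-DB also 0 at an unadjusted p under 0.05 and 0 by DESeq2). Without masked TH59-DB 2, 4 of 9 passed as lower in masked TH59-DB against input and 2 of 9 as higher in TH59-DB against masked TH59-DB, beside the calls over all models given above for that setting. Against input all 7 log2 fold changes in TH59-DB were negative, with a median of -1.09 (edgeR, 1 lower and 0 higher at an unadjusted p under 0.05, 0 by DESeq2). In masked TH59-DB all 7 were also negative, with a median of -1.74 (0 at an unadjusted p under 0.05, 0 by DESeq2). For 2 of the 7 both TH59-DB libraries lay below both input libraries, where 23.5% of tested models did. For 5 of the 7 (71.4%) both masked libraries did, where 14.4% of tested models did. The leading model of Mdh2, the mitochondrial malate dehydrogenase, had 54.3 and 34.4 CPM in TH59-DB and 33.5 and 141 CPM in masked TH59-DB, against 150.4 and 250.1 CPM in input (log2 fold change of TH59-DB against input -2.14, SE 0.70, edgeR adjusted p = 0.165). Sdha and Sucla2, of succinate dehydrogenase and succinyl-CoA ligase, were low. Sdha averaged 5.84 ± 1.15 CPM in TH59-DB, 5.75 ± 4.06 in masked TH59-DB and 10.6 ± 7.36 in input, and Sucla2 3.74 ± 2.55 in TH59-DB, 1.44 ± 2.04 in masked TH59-DB and 8.95 ± 3.19 in input (SD, n = 2 each).

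**Figure D5:**
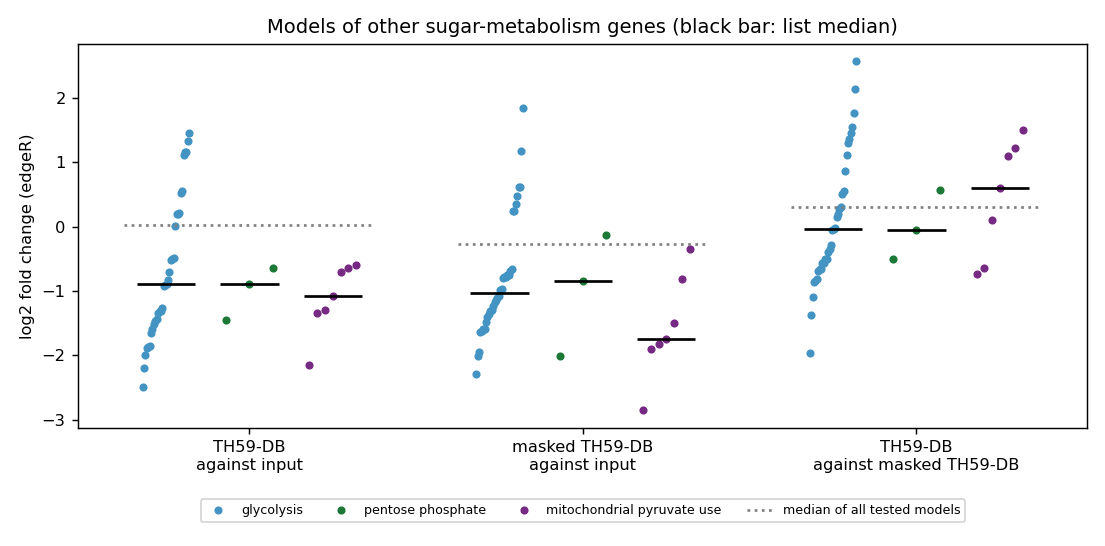
Log2 fold changes (y axis) of the tested models of the 3 lists in the 3 comparisons, with a black bar at each list's median and a dotted line at the median of all tested models. Against input the glycolysis median is -0.90 for TH59-DB and -1.04 for the masked capture, and the dotted lines are at 0.03 and -0.26.

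The models whose pattern over the 6 libraries was most like that of each gene's most abundant model were found by Pearson's correlation of log2(CPM + 0.5) among tested models in gene spans, given as a description. All points share the 6 libraries and their depths. For Gpi1 end they included Rps25 (r = 0.995) and Rps9 (0.992), both ribosomal protein genes. For Gapdh they included Zfhx3 (0.997) and Kmt2a (0.996), each with 0 reads in masked TH59-DB 1. For Rpia they lay in Cdyl (0.991), Mns1 (0.984) and Kmt2d (0.983).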

How the data were processed

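RNA was sequenced in 6 libraries. The deposited counts are whole reads per Cufflinks-named transcript model, per the file headers. The deposited FPKM values equal the count over model length and 1 library total, which was recovered from them. The submitters' processing notes name cutadapt, HISAT2, Cufflinks, featureCounts and mm10; versions are not given in the sources used here. Files of libraries 1 and 2 were joined on chromosome, start and end (7695 models) or on first start and length (264). Genes came from a RefSeq table of GRCm38.p6. Counts were tested with edgeR 4.0.16 (R 4.3.3): library totals as sizes, filterByExpr, TMM, robust quasi-likelihood fit of 3 groups (biological coefficient of variation 0.702). Exact intervals are Clopper-Pearson at 95%. On data simulated for TH59-DB against input, with a fold of 8 and less spread than here, 95.2% of 187 changed models among 4993 were recovered. DESeq2 1.42.0 was an alternative. With 2 libraries a group, a permutation p cannot go below 0.333, so none was used. The members and lists were chosen with earlier results of these data known. Every model of the 3 genes is named, with, for each list, the 4 genes most abundant in input and, for each gene, the 3 models most like it. Some items that this rule names are not reported here.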

Additional observations from a re-analysis of the deposited data

How the results depend on the processing

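Of the 5 models, 1 passed in TH59-DB against input. This count was 0 with library totals and no TMM factors, and 0 to 1 with 1 library left out. In masked TH59-DB against input it was 0 in every setting that kept all 6 libraries. TH59-DB against masked TH59-DB chose the genes, so no count of members is given for it. Leaving out masked TH59-DB 2 moved the log2 fold change of Gapdh most. It was then -6.63 in masked TH59-DB against input and 6.76 in TH59-DB against masked TH59-DB. The summed level of the 5 models, a mean of 31.5, 87.9 and 112 CPM in TH59-DB, masked TH59-DB and input, was 68.4, 171 and 235 when divided by the reads in models. Signs turned for low or near-zero values. Gapdh in TH59-DB against input was -0.0191 with library totals and -0.65 to 0.81 with 1 library left out. Rpia in masked TH59-DB against input was 0.27 with DESeq2 size factors and by DESeq2, 0.22 with library totals, 0.15 without the filter, 0.28 with reads in models as library sizes (added after the data were seen), 0.0061 with the replicate block and -0.18 to 0.52 with 1 library left out. Gpi1 interior ran from -1.95 to 2.54 in masked TH59-DB against input and from -0.57 to 3.87 in TH59-DB against masked TH59-DB. With 1 library left out, the lone library of its group is assumed to vary like the other groups. The causes were not tested. With at least 90% of bases in the span the 5 models were the same.

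Over all models, calls in TH59-DB against input numbered 195, and 102 to 756 with 1 library left out, 312 without the filter and 393 by DESeq2. In masked TH59-DB against input they numbered 14, and 0 to 1413, 113 and 112 in the same settings. In TH59-DB against masked TH59-DB they numbered 76, and 32 to 1720, 206 and 266. With library totals they were 230, 108 and 155, with DESeq2 size factors 252, 57 and 167, and with reads in models as library sizes 245, 50 and 155. DESeq2 size factors moved the median log2 fold change of all models against input from 0.03 to 0.40 in TH59-DB and from -0.26 to -0.08 in masked TH59-DB. The same numbers in the labels do not show that libraries pair: deviations of same-numbered libraries correlated at -0.01 (both captures), 0.09 (TH59-DB and input) and 0.13 (masked TH59-DB and input). With the replicate block 363, 106 and 191 models passed, Gpi1 end kept its call (log2 fold change -2.98, adjusted p = 0.00589), and 3 of the glycolysis models and 1 of the mitochondrial models passed as lower in TH59-DB against input, where over all models 118 passed as lower and 245 as higher with the block, and 2 as lower and 193 as higher without it. The 5 models had 4 to 30 reads in TH59-DB, which limits the precision of their folds in the comparisons with TH59-DB.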
